A study of Mus musculus with 64 samples.

Results

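A set of 10 genes that differ in level between inbred mouse strains, most of them strongly, was followed through fat depots, diets, a drug and an F1 cross. They were taken by symbol from every library: Nnt, Hal, Rprl3, Trim12a, Grid1, Tfr2, Unc5a, Pttg1, Nlrp1c-ps and Slc7a11, which make 10 of the 24328 genes counted. They lie on chromosomes 3 (Slc7a11), 5 (Tfr2), 7 (Trim12a), 8 (Rprl3), 10 (Hal), 11 (Pttg1 and Nlrp1c-ps), 13 (Nnt and Unc5a) and 14 (Grid1). All 10 were chosen by their levels in the 129 and B6 groups of these same libraries, so the strain differences below are a description with no test. Tests are given for other contrasts, namely diet, rosiglitazone, the F1 hybrid and the interactions of diet or drug with strain. Libraries of F1, of eWAT set 1, of B6 iWAT on LFD and of B6 eWAT with rosi were in none of the strain contrasts, while the other libraries of these tests were, so that only the tests of F1 and of diet in set 1 are free of libraries that the choice used, and an interaction combines 2 of the strain contrasts. Levels are given as CPM, the counts of a gene scaled to the library total with TMM factors, not per length.

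RNA of adipose tissue was sequenced in 64 libraries of 15 groups. The mice were C57BL/6J (B6 here), 129S1/SvlmJ (129 here) or the B6/129S1 F1 hybrid (F1 here), and no transgene or induced mutation is named in the labels. Inguinal fat (iWAT, subcutaneous) came from B6 on a low-fat diet (LFD) as control (n = 4), on a high-fat diet (HFD) as control (n = 4) and on HFD with rosi (n = 4), from 129 on HFD as control (n = 4) and with rosi (n = 4), and from F1 on LFD as control (n = 5) and with rosi (n = 5). Epididymal fat (eWAT, visceral) came from B6 on LFD (n = 5) and HFD (n = 5) with no agent named (set 1), from B6 as controls on LFD (n = 4) or HFD (n = 4) and as rosi-treated mice on HFD (n = 4; set 2), and from 129 on LFD control (n = 4) and HFD control (n = 4). Brown fat (BAT) came from B6 on HFD (n = 4). Rosi is rosiglitazone, an agonist of the nuclear receptor PPAR gamma that drives fat cell genes. Age, sex, the direction of the cross and the parent of origin of any allele were not given in the sources used here. Nothing in the labels states that each library is a different mouse, and p-values therefore reflect only library-to-library spread.

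Inbred strains carry fixed alleles, so a gene whose sequence differs between them can be high in every mouse of one strain and low in every mouse of the other. In an F1 animal each autosomal gene has a copy from either parent. When each copy is transcribed as in its own parent the F1 level lies midway, while regulators that act on both copies can put it elsewhere. Such genes belong here to several systems: amino acid and redox metabolism (Hal, Slc7a11, Nnt), iron sensing (Tfr2), innate immune families that expanded by gene duplication (Trim12a, Nlrp1c-ps), an RNA gene (Rprl3), neuronal surface receptors (Grid1, Unc5a) and chromosome segregation (Pttg1).

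Reads had been aligned to mm9, a genome of C57BL/6J, so reads from 129 alleles were matched to B6 sequence, and how many were lost to that was not tested. Each library held 3099737 to 9551251 counts in genes. The share of reads outside annotated genes was 66.8 to 70.6% in F1 libraries and 33.1 to 40.6% in control libraries of the parents' iWAT. It was 64.3 to 67.7% in B6 eWAT of set 1. Ambiguous reads made 0.195 to 0.246% in F1 and 0.203 to 0.269% in set 1, against 0.849 to 0.982% in the parents' iWAT controls. F1 was sequenced in a run of its own, so that cross and run cannot be told apart. F1 is thus compared with parent libraries unlike it in these shares, whose part in the F1 levels was not tested. In iWAT the strains were sequenced in different lanes of 1 run, so strain and lane cannot be told apart there, while in eWAT both strains shared a lane on each diet. The depot labels matched their markers: 5 genes of epididymal fat and mesothelium summed to 0.00730 to 0.0575% of counts in eWAT groups and to at most 0.00189% in iWAT groups, and 7 brown fat genes summed to 0.843 to 0.951% in BAT. One F1 control library, replicate 1, stood apart, with a summed share of 6 lymph node markers of 0.0390% against 0.000387 to 0.000703% in the other F1 controls, and the results of Trim12a and the F1 position of Slc7a11 are given with and without it.

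Rprl3 and the Trim and Nlrp1 genes have close copies elsewhere in the genome, and the sequences show how close. Rprl3 is annotated as a gene like the RNA of ribonuclease P, the ribozyme that trims the 5′ end of tRNA precursors, and Rpph1 encodes that RNA itself. In GENCODE M21 (GRCm38) Rprl3 lies at chr8:3803069-3803358 and Rpph1 at chr14:50807449-50807767, both on the minus strand. Over their shared stretch, bases 1 to 257 of Rpph1 and 1 to 236 of Rprl3, 222 bases are the same and 14 differ (94.1% the same), and 21 bases, placed in 2 stretches by the alignment, are present in Rpph1 only. Differing bases and those stretches are in capitals:
Rpph1: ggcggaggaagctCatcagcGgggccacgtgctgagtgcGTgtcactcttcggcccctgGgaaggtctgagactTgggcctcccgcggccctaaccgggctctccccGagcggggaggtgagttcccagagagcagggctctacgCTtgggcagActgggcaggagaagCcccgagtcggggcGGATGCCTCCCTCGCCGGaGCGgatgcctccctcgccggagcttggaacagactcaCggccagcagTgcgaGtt
Rprl3: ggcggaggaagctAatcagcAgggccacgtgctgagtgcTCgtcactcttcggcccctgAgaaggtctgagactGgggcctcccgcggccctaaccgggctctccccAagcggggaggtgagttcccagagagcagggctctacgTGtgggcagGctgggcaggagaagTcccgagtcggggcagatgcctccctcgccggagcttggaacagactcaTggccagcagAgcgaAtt
The whole 290 bases of Rprl3 are 92.1% the same as Rprl2 and as the matching stretch of Rprl1. With so few differences a short read can fall where the copies are alike, so the split of counts between Rprl3 and its copies is uncertain.

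Trim12a and Trim12c, neighbouring copies of a gene related to the retroviral restriction factor TRIM5, share 96% of bases over 967 bases of their transcripts. Their promoters, taken as the 250 bases before the start site (RefSeq, GRCm38.p6), were also close: over the shared 210 bases of Trim12a, 200 were the same as in Trim12c. The windows are chr7:104315496-104315745 for Trim12a and chr7:104353350-104353599 for Trim12c, minus strand, with differing bases of the shared stretch in capitals:
Trim12a promoter: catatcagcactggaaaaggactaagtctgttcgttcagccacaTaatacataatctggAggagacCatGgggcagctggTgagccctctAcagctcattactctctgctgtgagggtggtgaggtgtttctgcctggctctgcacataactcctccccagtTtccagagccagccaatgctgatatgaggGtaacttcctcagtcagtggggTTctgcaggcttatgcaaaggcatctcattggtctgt
Trim12c promoter: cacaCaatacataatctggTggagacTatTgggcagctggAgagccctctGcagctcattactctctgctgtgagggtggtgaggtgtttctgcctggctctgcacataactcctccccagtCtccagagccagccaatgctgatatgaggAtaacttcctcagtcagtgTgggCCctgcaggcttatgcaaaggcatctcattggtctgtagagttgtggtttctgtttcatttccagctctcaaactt
The Slc7a11 promoter is shown because the gene moved with diet in B6 eWAT. Within its window, chr3:50443614-50443863 on the minus strand, 2 matches to TGATGNAA, the letters bound by ATF4 and its partners in amino acid response genes, were found on opposite strands and are in capitals:
Slc7a11 promoter: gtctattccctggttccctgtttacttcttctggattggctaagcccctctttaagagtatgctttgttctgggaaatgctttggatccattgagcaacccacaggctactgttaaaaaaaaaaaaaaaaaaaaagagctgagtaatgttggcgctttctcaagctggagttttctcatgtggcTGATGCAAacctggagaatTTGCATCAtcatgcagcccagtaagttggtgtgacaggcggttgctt
This motif, searched on both strands, is held by 3.45% of the 32851 promoter windows in the table. The antioxidant response letters TGACNNNGC were not found in the Slc7a11 window and are held by 10.2% of windows. Of the 10 genes, 6 had a promoter in the table, and neither motif was in the windows of Hal, Trim12a, Tfr2, Unc5a or Pttg1.

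Across the 4 contrasts of 129 with B6 at matched depot, diet and agent, all 10 genes had groups that did not overlap in iWAT HFD control and in eWAT LFD control, and 9 of 10 did so in iWAT HFD rosi and in eWAT HFD control. Over all genes tested the share with groups that did not overlap was 28.8% in iWAT HFD control, 21.5% in iWAT HFD rosi, 31.5% in eWAT LFD control and 49.8% in eWAT HFD control, and nothing is read from the members' counts, since these contrasts chose them. The exceptions were Nnt in iWAT with rosi and Slc7a11 in eWAT on HFD. For Nnt the overlap rested on 1 B6 library, at 16.7 CPM against 16.2 CPM in the lowest 129 library. In these settings the mean was still higher in 129, 1.93-fold for Nnt and 1.72-fold for Slc7a11. The ranges of the strains thus did not stay apart in every setting for those 2 genes. In bulk tissue, fewer cells of a type and less RNA per cell cannot be told apart in any of these values.

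Hal, histidine ammonia-lyase, which turns histidine into urocanate, was nearly silent in B6 and abundant in 129. In iWAT the B6 libraries had 0.236, 0, 0.347 and 0.234 CPM on LFD and 0.284, 0.44, 0.335 and 0.49 CPM on HFD. The 129 libraries on HFD had 108, 120, 101 and 103 CPM, a 279-fold difference from B6 on the same diet. In eWAT the B6 groups spanned 0 to 5.72 CPM and the 129 groups 65.4 to 107 CPM on LFD and 93.2 to 132 CPM on HFD. No B6 library came near any 129 library in either depot.

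Slc7a11 encodes the cystine and glutamate exchanger xCT, which brings in cystine for glutathione synthesis. In iWAT its level was 1.56, 0.44, 2.68 and 0.612 CPM in B6 on HFD and 42.3, 52.3, 43.3 and 47.2 CPM in 129 on HFD, a 35-fold difference. In eWAT on LFD it was 2.02, 1.66, 2.08 and 1.42 CPM in B6 and 62.3, 64.5, 69.6 and 53.5 CPM in 129. On HFD the B6 eWAT libraries rose to 4.08, 28, 44 and 28.7 CPM while the 129 libraries had 42.5, 44.3, 42.8 and 51.1 CPM, so that the strains overlapped.

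Nnt, the mitochondrial transhydrogenase that makes NADPH and is known to lack internal exons in C57BL/6J, showed the smallest strain difference of the 10 in all contrasts but that of eWAT on HFD. Its level in iWAT on HFD was 16.1, 16.7, 13.9 and 15.1 CPM in B6 and 26.6, 23.2, 23.7 and 29 CPM in 129, which is 1.66-fold. In eWAT it was 26.5, 23.8, 24.2 and 30.1 CPM in B6 and 50.9, 52.7, 51.9 and 62.6 CPM in 129 on LFD, which is 2.09-fold. With rosi in iWAT the B6 range of 8.13 to 16.7 CPM reached into the 129 range of 16.2 to 29.9 CPM. A count over the whole gene cannot show which exons the B6 reads came from.

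Tfr2, transferrin receptor 2, binds iron-loaded transferrin and takes part in iron sensing, chiefly known from the liver. Its level in iWAT on HFD was 20.6, 14.7, 32.6 and 33.5 CPM in B6 and 0, 0.176, 0.126 and 0.136 CPM in 129. The 129 group held 3 counts in all, and the ratio was 232 with a 95% interval of 76.1 to 1085 that covers counting error only. In B6 eWAT controls the gene varied widely within a group, with 22.5, 5.53, 18 and 1.42 CPM on LFD and 34.3, 8.77, 1.48 and 19.3 CPM on HFD. The lowest of these stayed above the highest 129 eWAT library, 1.26 CPM. The lowest B6 eWAT library with rosi, at 1.25 CPM, did not.

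Trim12a and Nlrp1c-ps belong to immune gene families. Trim12a was at 18.2, 21.4, 16.6 and 18.4 CPM in B6 iWAT on HFD and had 0 counts in all 4 libraries of 129 iWAT on HFD, at least 163-fold lower when 3 counts over the group stand for 0. In eWAT on LFD it was 15.3, 16.6, 15.9 and 13.9 CPM in B6, against 2 counts in all of the 129 group. Nlrp1c-ps, a pseudogene beside the inflammasome sensor genes Nlrp1a and Nlrp1b, had 0 counts in all 16 of the 129 libraries. In B6 it was 5.4, 7.62, 8.54 and 6.00 CPM in iWAT on HFD and 8.62, 16.3, 19.9 and 13.2 CPM in eWAT on HFD, at least 60.3-fold and at least 126-fold higher than in 129.

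The copies of these genes did not all follow them. Trim12c was 36.8 ± 2.34 CPM (SD, n = 4) in B6 iWAT on HFD and 45 ± 2.65 CPM in 129, with no overlap and in the direction opposite to Trim12a. On LFD in eWAT Trim12c was 24.4 ± 3.68 CPM in B6 and 25.8 ± 4.44 CPM in 129, with groups that overlapped. Nlrp1a and Nlrp1b were present in 129: Nlrp1b was 8.11 ± 1.77 CPM in B6 iWAT on HFD and 1.73 ± 0.253 CPM in 129. Nlrp1c-ps shares 89.5% of aligned bases with Nlrp1a and 86.4% with Nlrp1b, so some reads of these 3 genes may be shared.

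Rprl3 was at 0 counts in nearly all B6 libraries and abundant in 129. The 129 libraries had 292, 238, 250 and 312 CPM in iWAT on HFD, and the B6 groups of iWAT had 0 counts in all 12 libraries, at least 2547-fold lower on HFD. On LFD in eWAT the 129 libraries had 157, 139, 101 and 103 CPM, and the 4 B6 libraries held 3 counts in all. Rprl1 and Rprl2, its copies, stayed near 0 in most libraries of both strains, with a highest Rprl1 level of 12.8 CPM in 129 eWAT LFD control replicate 3.

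Rpph1 moved the other way. Its level was 2705, 2544, 3436 and 2962 CPM in B6 iWAT on HFD and 1524, 1084, 1193 and 1379 CPM in 129, and in eWAT on LFD 1219, 2404, 1648 and 1777 CPM in B6 and 654, 674, 481 and 492 CPM in 129. It was lower in 129 in all 4 contrasts, with log2 fold changes of -1.19 in iWAT HFD control and -1.74 in eWAT HFD control, and passed the edgeR test in each. F1 libraries had 529 to 966 CPM as controls and 578 to 812 CPM with rosi, below every B6 iWAT library, the lowest of which had 2407 CPM, and below every 129 iWAT library, the lowest of which had 1084 CPM. Whether reads of one RNA were placed on the other was not tested.

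**Figure D1:**
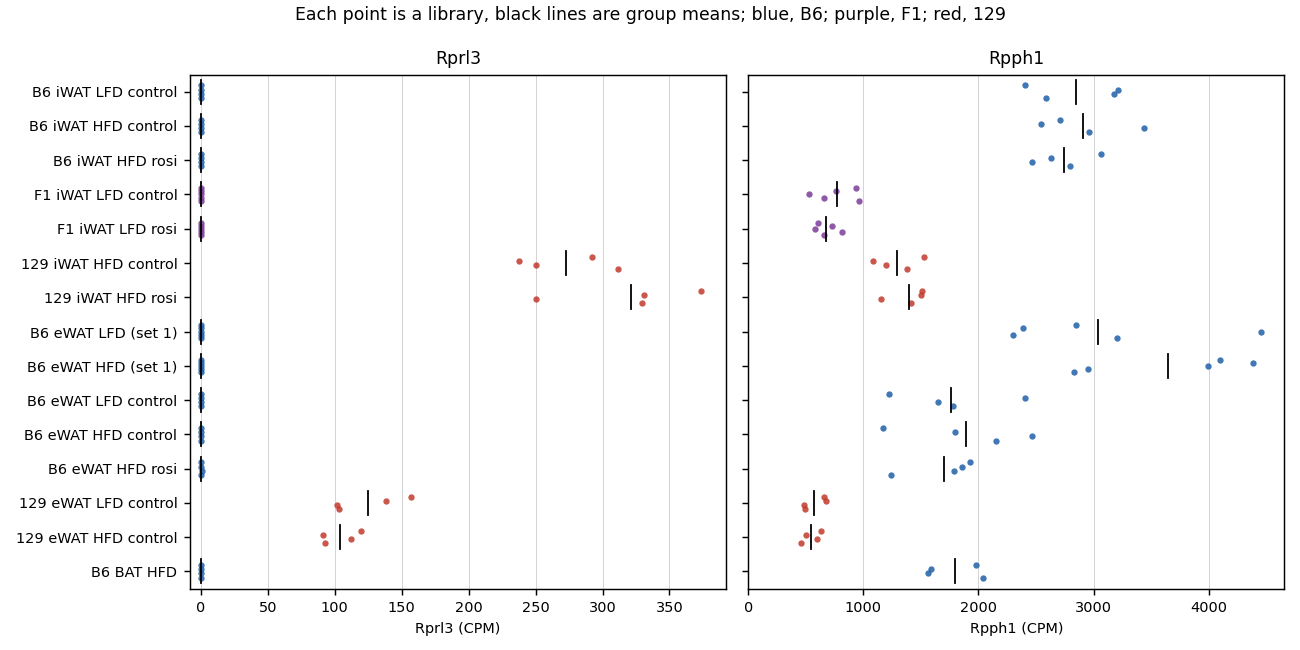
Level of Rprl3 (left) and Rpph1 (right) in CPM on the x axis for every library of the 15 groups on the y axis, with points for libraries and black lines for group means. Rprl3 was at least 91.6 CPM in every 129 library and at most 0.623 CPM in every B6 and F1 library, and Rpph1 was lower in 129 and F1 than in B6 of the same depot.

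Grid1 and Unc5a encode neuronal receptors. Grid1, the glutamate receptor delta 1 that links to neurexins through cerebellins, had 15.5, 10.7, 13.2 and 12.2 CPM in B6 iWAT on HFD and 1 count in all in the 129 group, a ratio of 380 with a counting interval of 60.4 to 13410. In eWAT on LFD it was 4.27, 3.87, 7.55 and 1.7 CPM in B6 and 0.22, 0.401, 0.200 and 0.43 CPM in 129. Unc5a, a receptor for the guidance cue netrin, had 17.2, 14.2, 19.2 and 23 CPM in B6 iWAT on HFD and 0.19, 0.878, 0.629 and 0.544 CPM in 129, a 32.9-fold difference. On LFD in eWAT it was 25.6, 29.6, 29.7 and 32.3 CPM in B6 and 1.54, 0.802, 1.2 and 1.51 CPM in 129. Low counts of both genes were found in 129 libraries of either depot.

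Pttg1, or securin, holds the protease separase inactive until chromosomes part. It was even among B6 libraries, with 21.1, 20.8, 20.1 and 21.1 CPM in iWAT on HFD, and 0.19, 0.878, 0.755 and 0.68 CPM in 129, a 33.2-fold difference. In eWAT on LFD it was 27.4, 22.9, 22.6 and 21.6 CPM in B6 and 1.98, 1.2, 1.6 and 0.43 CPM in 129. The 129 level was above 0 in every library of both depots.

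**Figure D2:**
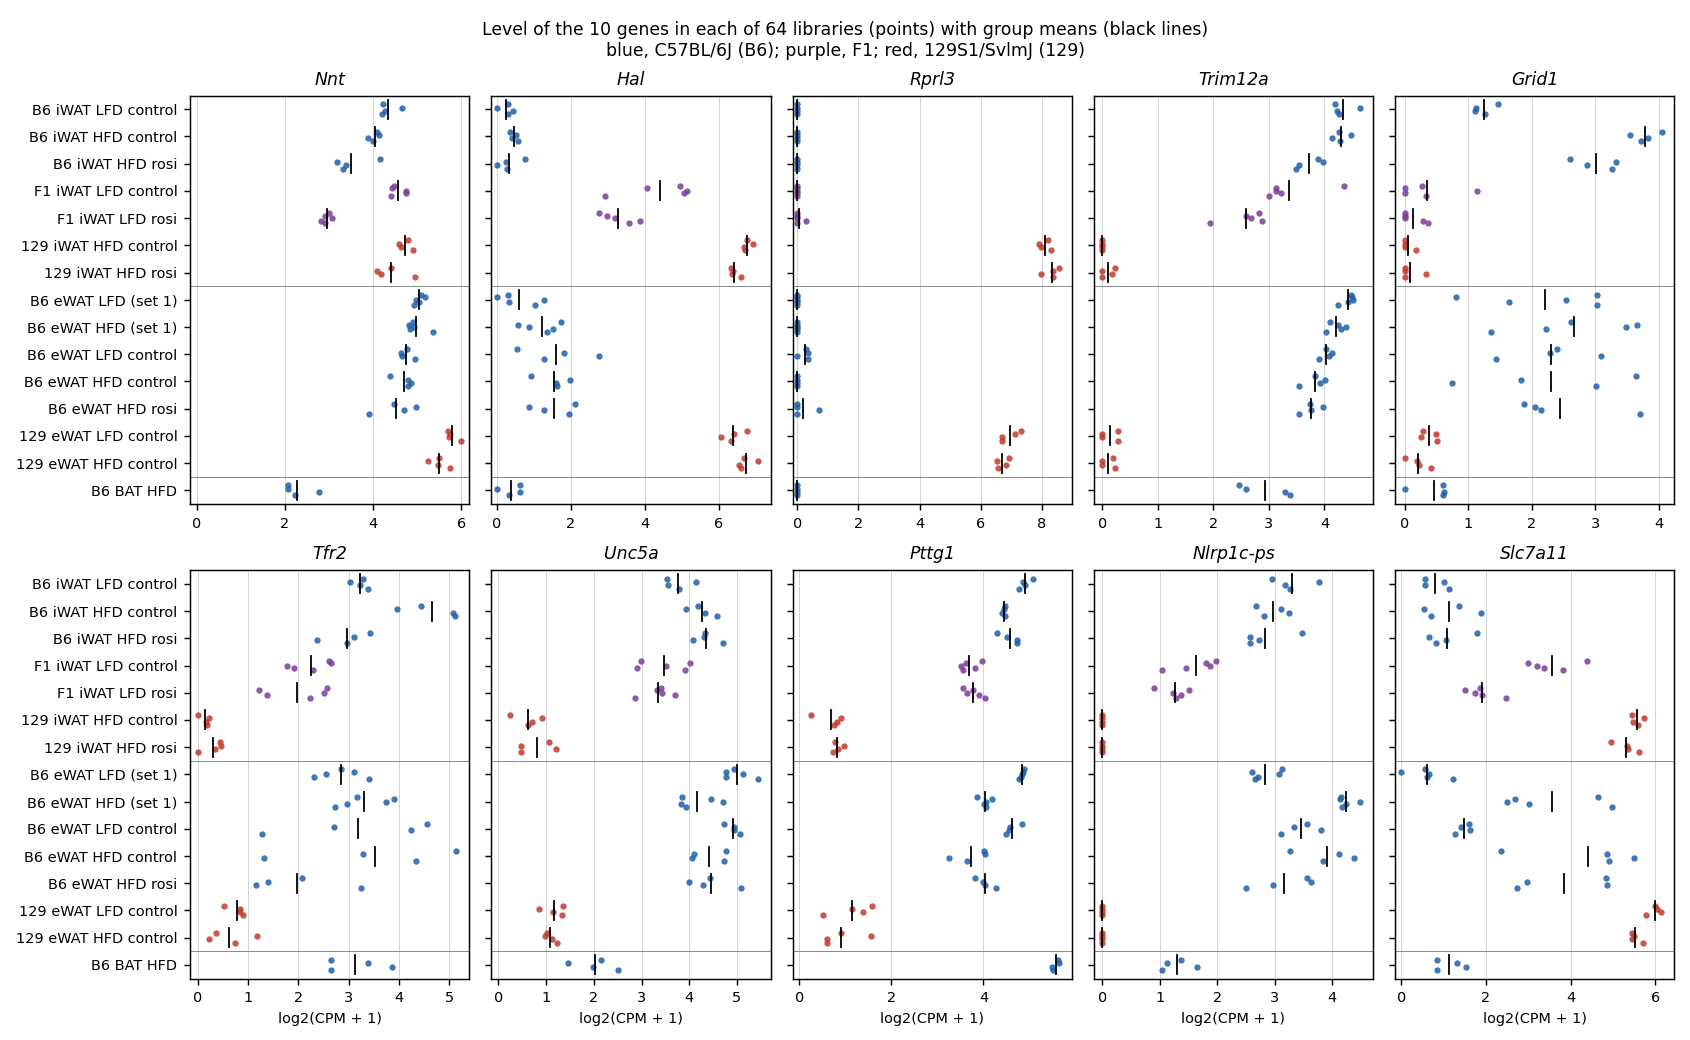
Level of each of the 10 genes as log2(CPM + 1) on the x axis in the 15 groups on the y axis, with iWAT, eWAT and BAT separated by grey lines, points for libraries and black lines for group means. Hal, Rprl3 and Slc7a11 were high in 129 (red), 6 genes were high in B6 (blue), Nnt differed least, and F1 (purple) lay between the parents for most genes.

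Brown fat was sampled in B6 only. There Pttg1 was at 48.4, 49.3, 43.8 and 44.4 CPM, above its level in every other library, the highest of which was 32.8 CPM. Nnt was at 3.17, 3.23, 5.87 and 3.66 CPM, below its lowest white fat library of 6.12 CPM, and Unc5a at 3.44, 1.76, 2.94 and 4.71 CPM, below every white fat library of B6 and F1. Hal, Grid1 and Slc7a11 were low in BAT, at up to 0.534, 0.534 and 1.87 CPM, and Rprl3 had 0 counts. BAT was sequenced in a run of its own, so depot and run cannot be told apart.

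The F1 hybrid was sampled in iWAT on LFD, and its level was placed on a scale where the mean of B6 on LFD is 0% and the mean of 129 is 100%. No 129 iWAT on LFD was analysed here, so the 129 end comes from HFD controls and differs in diet. On this scale 9 of 10 genes had a mean between the parents, and Rprl3 did not. The genes were chosen for a gap between the parents, which favours a mean inside it, and the share over all genes was not counted. Nothing is therefore read from this count, here or with other parent groups. The genes had no common position: on this scale Hal, Slc7a11 and Unc5a were nearer to B6, Grid1 and Nlrp1c-ps nearer to 129, and Tfr2, Pttg1, Nnt and Trim12a near the middle.

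Rprl3 had 0 counts in all 5 F1 control libraries, as in B6, although the lowest of the 129 iWAT control libraries had 238 CPM. With rosi 1 of 5 F1 libraries held 1 count. A count of 0 allows up to 3 counts over the F1 control group, or 0.145 CPM, for counting error only.

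Hal in F1 controls was 30.0, 15.7, 34.2, 32.3 and 6.53 CPM, a position of 21.9% ± 11.2 (SD over 5 F1 libraries). Slc7a11 was 19.8, 6.98, 8.19, 9.25 and 13.1 CPM, at 23.5% ± 11.4. Every F1 library of both genes was above every B6 LFD library and below every 129 library.

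Pttg1 in F1 controls was 14.6, 11.2, 10.4, 13 and 10.7 CPM, at 60.2% ± 6.22, with the tightest spread of the genes with F1 counts. Tfr2 was 5.06, 5.24, 2.41, 2.75 and 3.92 CPM, at 54.7% ± 15.6, and Nlrp1c-ps was 2.95, 2.49, 2.65, 1.75 and 1.04 CPM, at 75.9% ± 8.55. All F1 libraries of these 3 genes lay between the parent groups with no overlap. Trim12a was 19.4, 7.73, 7.71, 8.25 and 7.05 CPM, at 48.1% ± 27.2, where replicate 1 was at the B6 level and the other 4 libraries at 7.05 to 8.25 CPM. Without replicate 1 the position of Trim12a was 60.2% ± 2.55 and that of Slc7a11 18.9% ± 5.77.

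Nnt, Unc5a and Grid1 were less certain. Nnt was 21.1, 20.5, 26, 25.8 and 20.4 CPM in F1, at 53.9% ± 46.6, a spread that covers most of the distance between the parents. Unc5a was 6.96, 15.2, 10.4, 6.5 and 14.1 CPM, at 17.2% ± 32.8, and 2 of 5 libraries were above the B6 mean. Grid1 held 7 counts in all F1 controls, so its position of 77.6% ± 37.2 rests on few reads.

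**Figure D3:**
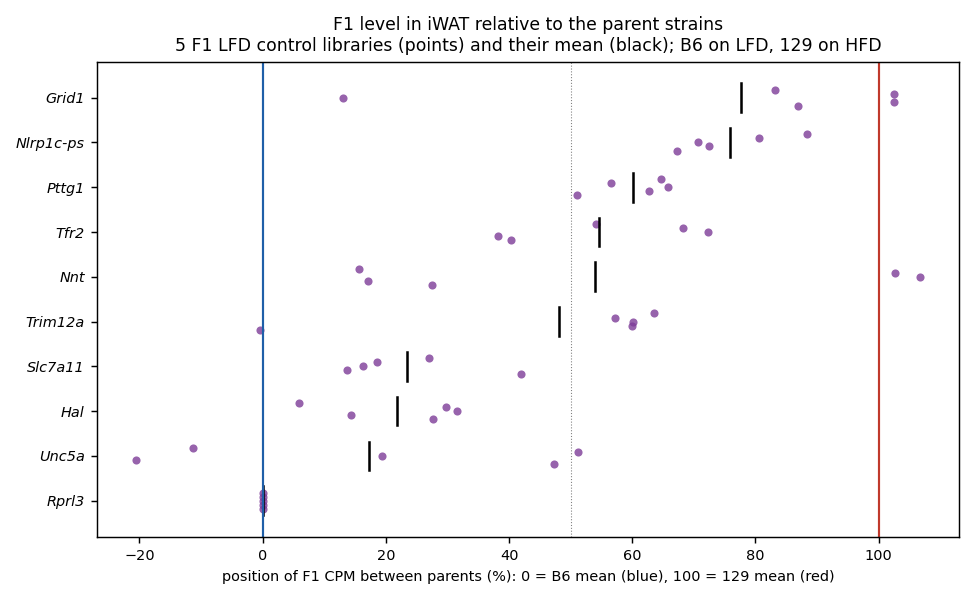
Position of each F1 LFD control library (points) and their mean (black lines) between the mean of B6 on LFD (0%, blue line) and the mean of 129 on HFD (100%, red line) in iWAT, in percent on the x axis, for the 10 genes on the y axis. Rprl3 sits at 0%, Pttg1 and Nlrp1c-ps are tightly placed past the middle, and Nnt and Unc5a spread widely.

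The positions depended on which parent group was used. With HFD controls as the B6 parent, 9 of 10 genes were again between, but Tfr2 came to 85.1% ± 5.12 and Grid1 to 97.7% ± 3.88, since both were higher in B6 on HFD. Pttg1 came to 43.6% ± 8.80, Nnt to 71.9% ± 28.4 and Unc5a to 43.6% ± 22.3. In the rosi groups F1 was on LFD and both parents were on HFD, so both ends of the scale differ from F1 in diet. There Nnt left the interval, at -40.9% ± 4.83, with F1 below both parents. Slc7a11 came to 4.21% ± 2.72, Hal to 10.3% and Unc5a to 55.0% ± 10.9, past the middle.

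F1 was tested against B6 in iWAT on LFD (5 against 4 libraries), and none of these libraries was in a strain contrast. Of the 10 genes 8 had enough counts to test and 6 passed, 2 higher and 4 lower in F1, where 23.5% of all genes tested passed (11.4% higher and 12.1% lower). Hal differed by 6.60 ± 0.65 (SE; edgeR adjusted p = 5.08e-05) in log2 fold change and Slc7a11 by 3.90 ± 0.43 (SE; edgeR adjusted p = 0.000109). Lower in F1 were Nlrp1c-ps at -2.01 ± 0.29 (SE; edgeR adjusted p = 0.00078), Pttg1 at -1.27 ± 0.13 (SE; edgeR adjusted p = 6.49e-05) and Tfr2 at -1.10 ± 0.24 (SE; edgeR adjusted p = 0.00776). Each of these 5 moved towards its 129 level and had groups that did not overlap. The share of all genes without overlap was not counted for F1 against B6, so nothing is read from that trait.

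Trim12a was also lower in F1, at -0.92 ± 0.29 (SE; edgeR adjusted p = 0.043), with overlap at F1 control replicate 1. Without that library the difference was -1.31 (edgeR adjusted p = 0.000184), and without any one of the other 8 libraries the adjusted p was 0.0715 to 0.111. Nnt at 0.24 ± 0.14 (SE; edgeR adjusted p = 0.242) and Unc5a at -0.25 ± 0.27 (SE; edgeR adjusted p = 0.551) did not pass. Over the tested members the median log2 fold change was -0.58, against 0.01 over all genes. Skeletal muscle markers (8 of 8 in the files, none at 0 in either group) summed to 0.374 to 3.83% of counts in the B6 LFD libraries and to 0.000363 to 0.00315% in F1, and their part in these differences was not tested.

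Diet changed Slc7a11 most. In B6 eWAT of set 1, sequenced in 1 lane, its level was 0.48, 0, 0.57, 0.529 and 1.32 CPM on LFD and 24.1, 5.44, 4.67, 7.13 and 30.6 CPM on HFD. That is a log2 fold change of 4.61 ± 0.77 (SE; edgeR adjusted p = 0.000206), and no HFD library was as low as any LFD library. In set 2, where diet and run cannot be told apart, the rise was 3.70 ± 0.70 (SE; edgeR adjusted p = 0.00257). In 129 eWAT, also across runs, Slc7a11 fell on HFD, with a log2 fold change of -0.49 ± 0.10 (SE; edgeR adjusted p = 0.0036), from 62.3, 64.5, 69.6 and 53.5 CPM to 42.5, 44.3, 42.8 and 51.1 CPM.

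The diet effect on Slc7a11 differed between strains in eWAT, with an interaction of -4.22 ± 0.70 (SE; edgeR adjusted p = 0.000271) (129 minus B6) over 4 groups of 4 libraries. Here 40.2% of all genes tested passed the same interaction (18.7% higher and 21.5% lower) and 2 of 10 members did. The other was Rprl3 at 3.07 ± 1.16 (SE; edgeR adjusted p = 0.0495), which rests on 3 counts on LFD against 0 on HFD in B6 and did not pass with DESeq2 or in 12 of 16 fits that each left out a library. For a gene at or near 0 in a strain, the interaction is not interpretable, which holds for Rprl3, Trim12a, Nlrp1c-ps, Grid1 and Tfr2. The members were chosen for like strain differences, which favours a small interaction, so nothing is read from the number of members that passed.

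Macrophage markers moved with Slc7a11 in B6 eWAT. Their summed share (7 of 7 markers in the files, none at 0) was 0.0800 to 0.114% of counts on LFD and 0.483 to 0.936% on HFD in set 1, and 0.0612 to 0.135% and 0.327 to 1.01% in set 2. In 129 eWAT it was 0.0666 to 0.103% on LFD and 0.0826 to 0.109% on HFD, near the B6 LFD range, while Slc7a11 was at least 42.5 CPM in all 8 libraries. Within B6 HFD the libraries of set 1 had macrophage shares of 0.936, 0.506, 0.483, 0.687 and 0.872% in the order in which Slc7a11 is given above, so the 2 libraries highest in one were highest in the other. In set 2 HFD controls replicate 1 was lowest in both, at 0.327% and 4.08 CPM. The B6 eWAT libraries with rosi did not share an order, with macrophage shares of 0.512, 0.754, 0.707 and 0.214% and Slc7a11 at 27.6, 6.81, 28 and 5.6 CPM. Adipocyte markers (8 of 8 in the files, none at 0) went the other way, from 3.11 to 3.34% of counts on LFD to 1.05 to 2.48% on HFD in set 1 and from 2.77 to 3.57% to 0.766 to 2.92% in set 2, where the groups overlapped. The part of either cell type in the B6 diet changes of these genes was not tested.

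**Figure D4:**
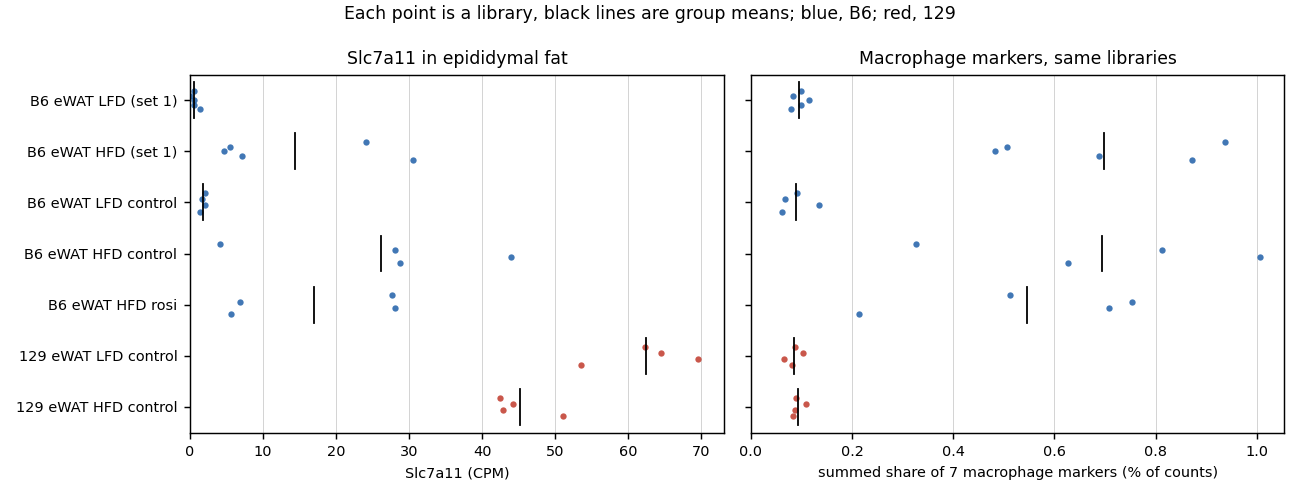
Slc7a11 in CPM (left) and the summed share of 7 macrophage markers in percent of counts (right) on the x axes for every eWAT library, with groups on the y axis, points for libraries and black lines for group means. Both are higher on HFD in B6, and 129 has high Slc7a11 with a marker share of at most 0.109%.

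Pttg1 fell on HFD in all 3 B6 comparisons, with log2 fold changes of -0.49 ± 0.09 (SE; edgeR adjusted p = 0.00498) in iWAT, -0.85 ± 0.09 (SE; edgeR adjusted p = 7.47e-06) in eWAT set 1 and -1.04 ± 0.20 (SE; edgeR adjusted p = 0.00248) in eWAT set 2. In set 1 it went from 28.3, 28.2, 27.4, 27.2 and 26.5 CPM on LFD to 13.5, 17.3, 15.6, 15 and 15.5 CPM on HFD. Summed proliferation markers (8 of 8 in the files) went the other way, from 0.00325 to 0.00472% to 0.0274 to 0.0418% of counts. Their part in the fall was not tested.

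Unc5a fell in eWAT, with a log2 fold change of -0.89 ± 0.20 (SE; edgeR adjusted p = 0.00192) in set 1, from 29.5, 26.1, 33.9, 26.4 and 42.6 CPM to 13.4, 21, 25.2, 13.2 and 14.2 CPM. In set 2 the change was -0.62 ± 0.20 (SE; edgeR adjusted p = 0.0295), with groups that overlapped, and without LFD replicate 2, 3 or 4 or HFD replicate 2 or 3 the adjusted p was 0.0669 to 0.0997. In HFD controls of set 2 Unc5a was 26.4, 16.2, 15.7 and 25.6 CPM and the adipocyte share 2.92, 1.19, 0.766 and 1.6%, with replicates 1 and 4 the higher in both, and the part of that share in the fall was not tested. Nlrp1c-ps rose in set 1 by 1.52 ± 0.16 (SE; edgeR adjusted p = 3.72e-06), from 7.67, 5.08, 7.42, 5.55 and 5.29 CPM to 16.8, 16.6, 21.4, 17.9 and 17.1 CPM, beside the rise in macrophage share given above. In set 2 its change was 0.37 ± 0.26 (SE; edgeR adjusted p = 0.263).

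Grid1 and Tfr2 rose on HFD in B6 iWAT. Grid1 went from 1.77, 1.19, 1.16 and 1.4 CPM to 15.5, 10.7, 13.2 and 12.2 CPM, a log2 fold change of 3.20 ± 0.20 (SE; edgeR adjusted p = 0.000274). Tfr2 went from 8.74, 7.15, 8.32 and 9.47 CPM to 20.6, 14.7, 32.6 and 33.5 CPM, a change of 1.58 ± 0.25 (SE; edgeR adjusted p = 0.00234). Neither pair of groups overlapped, and both diets were sequenced in 1 lane. Muscle markers summed to 0.00483 to 0.0136% of counts on HFD, below the LFD range given above. Adipocyte markers went from 2.21 to 3.22% to 3.62 to 4.17% and 6 endothelial markers from 0.0624 to 0.0743% to 0.0861 to 0.0926%, and the part of these cell types was not tested. In eWAT neither gene passed in either set and both varied widely within groups. On HFD in set 2 Grid1 was 11.5, 2.56, 0.671 and 7.04 CPM, in the same order of libraries as Tfr2 and as the adipocyte share given above, whose part was not tested.

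Among the members tested, diet called 3 of 7 in B6 iWAT, 2 higher and 1 lower on HFD, where 22.7% of all genes tested passed (11.7% higher and 11.1% lower). It called 4 of 8 in eWAT set 1, 2 higher and 2 lower (58.0% of all genes, 29.5% higher and 28.5% lower), and 3 of 9 in eWAT set 2, 1 higher and 2 lower (50.0%, 25.7% and 24.3%). In 129 eWAT it called 1 of 4, lower (21.2% of all genes, 9.27% lower). With 4 to 9 members tested in each comparison, nothing is read from these counts. In 129 eWAT Nnt was at -0.33 ± 0.11 (SE; edgeR adjusted p = 0.0502), Rprl3 at -0.29 ± 0.14 (SE; edgeR adjusted p = 0.158) and Hal at 0.31 ± 0.14 (SE; edgeR adjusted p = 0.125), none of which passed. The B6 LFD libraries of iWAT are shared with the comparison of F1 with B6.

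Rosiglitazone lowered the members it changed. In F1 iWAT it called 4 of 7 tested members, all lower, where 37.8% of all genes tested passed and 19.1% were lower. The F1 controls are shared with the comparison of F1 with B6. Nnt went from 21.1, 20.5, 26, 25.8 and 20.4 CPM to 6.96, 6.58, 7.4, 6.12 and 6.55 CPM, a log2 fold change of -1.76 ± 0.14 (SE; edgeR adjusted p = 2.46e-06). The groups did not overlap, and F1 with rosi had the lowest Nnt of any white fat group.

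Slc7a11 in F1 fell, with a log2 fold change of -2.03 ± 0.34 (SE; edgeR adjusted p = 0.000501), to 2.61, 1.84, 2.35, 2.72 and 4.56 CPM. Hal fell as well, with -1.39 ± 0.38 (SE; edgeR adjusted p = 0.0118), to 5.8, 6.84, 8.07, 13.6 and 10.8 CPM with groups that overlapped. Trim12a changed by -0.98 ± 0.33 (SE; edgeR adjusted p = 0.0316), and without F1 control replicate 1 by -0.56 (edgeR adjusted p = 0.0593); without rosi replicate 2, 3 or 5 the adjusted p was 0.0541 to 0.0822. Tfr2, Unc5a and Pttg1 did not pass in F1, at -0.30, -0.18 and 0.10. Brown fat markers (7 of 7 in the files, none at 0) summed to 0.0218 to 0.0498% of counts in F1 controls and 0.181 to 0.596% with rosi, and macrophage markers to 0.0212 to 0.0985% and 0.0119 to 0.0225%. Adipocyte markers summed to 2.3 to 3.02% and 3.19 to 4.07%. Their part in the falls was not tested.

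In B6 iWAT on HFD rosi called 3 of 7 tested members, all lower, where 13.2% of all genes tested passed and 6.38% were lower. Tfr2 fell, with a log2 fold change of -1.86 ± 0.30 (SE; edgeR adjusted p = 0.00355), from 20.6, 14.7, 32.6 and 33.5 CPM to 9.68, 7.56, 4.16 and 6.81 CPM. Grid1 fell with -0.84 ± 0.19 (SE; edgeR adjusted p = 0.0183), to 5.1, 9.07, 6.33 and 8.56 CPM, and Trim12a with -0.62 ± 0.15 (SE; edgeR adjusted p = 0.0211), to 13.7, 14.7, 10.7 and 10.2 CPM. In the same libraries endothelial markers (6 of 6 in the files, none at 0) went from 0.0861 to 0.0926% of counts to 0.0533 to 0.0655% and brown fat markers from 0.00326 to 0.00827% to 0.0117 to 0.0269%, and their part in the falls was not tested. The drug and diet comparisons of B6 iWAT share the HFD controls, so the rise of Grid1 and Tfr2 on HFD and their fall with rosi are not independent. Without rosi replicate 3 only Tfr2 passed, and Grid1 was then at -0.76 (edgeR adjusted p = 0.0582) and Trim12a at -0.55 (edgeR adjusted p = 0.0698). Grid1 also missed the threshold without control replicate 1 or 3, at an adjusted p of 0.0515 and 0.0543, and Trim12a without control replicate 2 or 4 or rosi replicate 4, at 0.0533 to 0.0805.

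In 129 iWAT 0 of 4 tested members passed, where 0.110% of all genes did. With an unadjusted p under 0.05 there was 1, Hal, at -0.35 ± 0.09 (SE; edgeR adjusted p = 0.229) with groups that did not overlap, and DESeq2 called 0. In B6 eWAT, whose HFD controls are those of the set 2 diet comparison, 0 of 9 passed, where 0.00% of all genes did, with 1 at an unadjusted p under 0.05 (Nlrp1c-ps) and 0 by DESeq2. Tfr2 there was at -2.03 ± 0.91 (SE; edgeR adjusted p = 0.932), from 34.3, 8.77, 1.48 and 19.3 CPM to 3.18, 1.63, 1.25 and 8.48 CPM. The interaction of rosi with strain in iWAT called 0 of 10 members (0.106% of all genes), 1 at an unadjusted p under 0.05 and 0 by DESeq2. It is not interpretable for Rprl3, Trim12a, Nlrp1c-ps, Grid1 and Tfr2, whose lowest group held 0 to 3 counts. Trim12a, Grid1 and Tfr2 are the members called in B6 iWAT. For the other members a difference between strains in the response was not shown. The members were chosen for like strain differences in the contrasts that this interaction combines, which favours a small interaction. Nothing is therefore read from the absence of calls. Hal also rests on few reads here, with 7 counts in B6 iWAT HFD rosi.

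**Figure D5:**
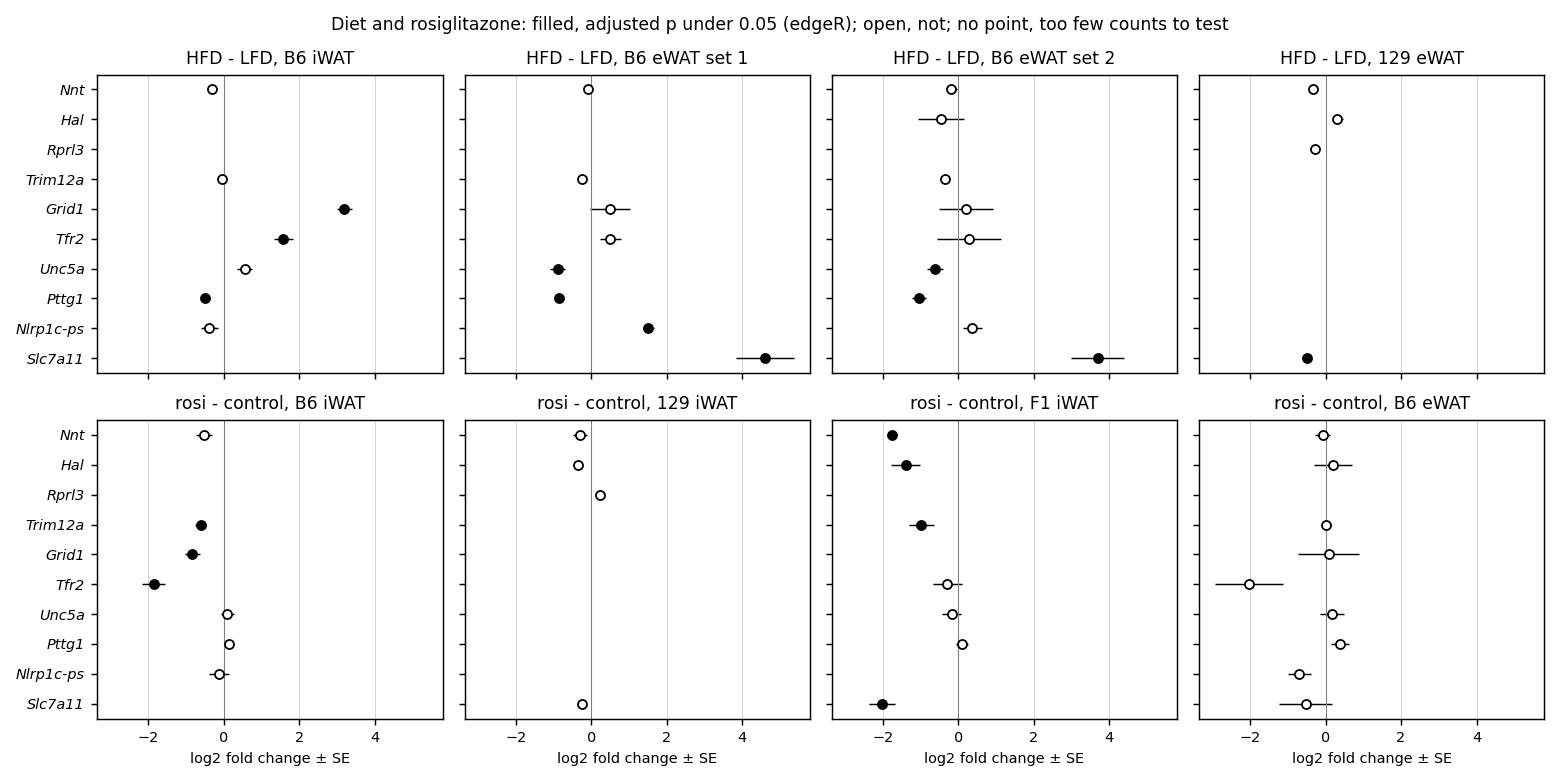
Log2 fold change with SE on the x axis for each of the 10 genes on the y axis in the 4 diet comparisons (top) and the 4 rosi comparisons (bottom), filled where the edgeR adjusted p was under 0.05 and open where it was not. Slc7a11 has the largest change, up on HFD in B6 eWAT, and all filled points in the rosi panels are below 0.

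Genes beside the members on their chromosomes were read in the same strain contrasts. These are up to 5 genes on each side in the order of RefSeq starts (GRCm38.p6) that have a row in the files, 98 in all. In iWAT HFD control 46 were tested and 16 passed, 6 higher and 10 lower in 129, where 27.8% of all genes passed (11.7% higher and 16.1% lower). In eWAT LFD control 22 of 46 passed, 7 higher and 15 lower (32.3% of all genes, 16.1% higher and 16.2% lower), and in eWAT HFD control 24 of 49, 9 higher and 15 lower (54.2%, 25.3% and 28.9%). In iWAT HFD rosi 16 of 44 passed, 5 higher and 11 lower (16.0%, 7.32% and 8.69%). The median log2 fold change of neighbours was -0.20 in iWAT HFD control, against 0.01 over all genes.

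Around Trim12a 5 of 5 tested neighbours passed in iWAT HFD control (27.8% of all genes) and 4 of 4 in iWAT HFD rosi (16.0%). In eWAT 2 of 3 passed in LFD control (32.3%) and 3 of 5 in HFD control (54.2%). With so few genes tested nothing is read from these counts. Trim34a and Trim30a, interferon-induced members of the family, were lower in 129 in all 4 contrasts, with log2 fold changes of -1.58 to -1.24 and -1.73 to -1.17. Trim34b was higher in 129 in the 2 contrasts where it was tested, at 3.29 to 4.13. Beyond the window, Trim30d was lower in all 4, at -6.07 to -4.24. Counts of genes in this cluster thus differed in both directions within a stretch of neighbouring copies. Close copies may share reads, and reads of 129 were matched to B6 sequence. The part of either in these differences was not tested.

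Nlrp1a and Nlrp1b, inflammasome sensors beside Nlrp1c-ps, were lower in 129 in all 4 contrasts, at -1.93 to -0.98 and -3.69 to -2.19. Beside Rprl3, the lectin gene Cd209a was lower in 4 of 4 at -5.17 to -4.15, and Cd209f in 3 of 4, while Trappc5, a subunit of a vesicle tethering complex, was higher in 4 of 4 at 0.32 to 0.69. Beside Nnt, 4833420G17Rik was lower in 4 of 4 at -1.84 to -1.30, and Fgf10, a growth factor of fat cell precursors, was higher in 4 of 4 at 0.64 to 2.20. Beside Hal, Elk3, a transcription factor, was lower in 4 of 4 at -1.28 to -0.59.

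Around Tfr2 0 of 5 tested neighbours passed in either iWAT contrast, and 4 of 6 did in eWAT LFD control. Around Unc5a 0 of 5 passed in iWAT HFD control, around Pttg1 1 of 3 and around Slc7a11 0 of 4. Grid1 had 2 of 4 there, both lower, among them Ccser2, which was lower in 3 of 4 contrasts. With 3 to 5 genes tested around each and 27.8% of all genes passing in iWAT HFD control, nothing is read from these counts.

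Genes of the same pathways or families were read from 10 lists, 148 genes of which 144 are in the files. Of those tested, 52 of 115 passed in iWAT HFD control (21 higher and 31 lower in 129; 27.8% of all genes), 31 of 111 in iWAT HFD rosi (8 and 23; 16.0%), 35 of 111 in eWAT LFD control (17 and 18; 32.3%) and 76 of 117 in eWAT HFD control (23 and 53; 54.2%). The list median was -0.28 in eWAT HFD control, against -0.01 over all genes.

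For Nnt the list held mitochondrial NADPH and peroxide handling. Idh2, which makes NADPH in the same compartment, was higher in 129 in 4 of 4 contrasts at 0.45 to 1.46, as was the glutaredoxin Glrx2 at 0.38 to 0.60, and Gpx4, a lipid peroxidase, in 3 of 4. In iWAT HFD control 5 of 17 genes were higher and 1 lower (11.7% and 16.1% of all genes). In iWAT HFD rosi 2 of 16 were higher and 2 lower (7.32% and 8.69%), with a list median of -0.27. In eWAT LFD control 5 of 16 were higher and 0 lower (16.1% and 16.2%). In eWAT HFD control 7 of 17 were higher and 5 lower (25.3% and 28.9%), so the list did not move 1 way in every contrast. For Hal, the enzymes that follow it in histidine breakdown, Uroc1, Amdhd1 and Ftcd, had too few counts to test, and Hdc, which makes histamine, was higher in 129 in the 2 iWAT contrasts and did not pass in the 2 eWAT contrasts, where its values were -0.51 and -0.85; the difference between depots was not tested.

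For Slc7a11 the partner subunit Slc3a2 passed in 0 of 4 contrasts. In iWAT 4 of 17 genes of its list were higher and 1 lower in 129 in HFD control (11.7% and 16.1% of all genes). In iWAT HFD rosi 1 was higher and 2 lower (7.32% and 8.69%). In eWAT HFD control 8 of 17 were lower and 2 higher (28.9% and 25.3%). The lower ones included Hmox1, the heme oxygenase that macrophages express strongly, at -3.60. Gclm, a subunit of the enzyme that starts glutathione synthesis, was also among them, at -2.33. In eWAT LFD control 2 were higher and 2 lower (16.1% and 16.2%). Asns, an amino acid response gene, was higher in 129 in 2 of 4. Macrophage shares in B6 eWAT differ between these diets as given above, and their part was not tested.

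The iron list of Tfr2 held Hfe, its partner in iron sensing, lower in 129 in 4 of 4 contrasts at -2.57 to -0.64, and the iron exporter Slc40a1, lower in 4 of 4 at -3.32 to -0.85. Tfrc, the common transferrin receptor, was lower in 3 of 4. The list as a whole went both ways, with 15 genes tested in each contrast. In iWAT HFD control 4 were higher and 5 lower in 129 (11.7% and 16.1% of all genes), and in iWAT HFD rosi 1 and 4 (7.32% and 8.69%). In eWAT the counts were 2 and 4 on LFD (16.1% and 16.2%) and 5 and 7 on HFD (25.3% and 28.9%). Hamp, which encodes the iron hormone hepcidin, had too few counts to test. Slc40a1 and Hfe are also expressed by macrophages, whose share in eWAT on HFD was 0.327 to 1.01% in B6 and 0.0826 to 0.109% in 129, and its part was not tested. For Rprl3, Pop4, a protein subunit of ribonuclease P, was lower in 129 in 4 of 4 at -1.35 to -1.18, and Rpp14, another subunit, was higher in 2 of 4.

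Of the inflammasome list of Nlrp1c-ps, 10 genes were lower and 1 higher in 129 in eWAT HFD control, of 12 tested, where 28.9% of all genes were lower and the macrophage shares differed as just given. In eWAT LFD control 3 of 11 were lower and 1 higher (16.2% and 16.1% of all genes). Macrophage shares there were 0.0612 to 0.135% in B6 and 0.0666 to 0.103% in 129. In iWAT HFD control 7 of 11 were lower and 2 higher (16.1% and 11.7%). Shares there were 0.0839 to 0.184% in B6 and 0.0508 to 0.0704% in 129. In iWAT HFD rosi 4 of 11 were lower and 1 higher (8.69% and 7.32%). Shares there were 0.0578 to 0.220% in B6 and 0.0498 to 0.0657% in 129. The part of macrophages was not tested. Il18, an inflammasome substrate, was higher in 129 in 4 of 4 at 0.80 to 1.69, against the direction of most of the list. The segregation list of Pttg1 had 0 genes higher in 129 in any contrast. In iWAT 8 of 17 were lower in HFD control (16.1% of all genes) and 6 of 16 in HFD rosi (8.69%). In eWAT 1 of 16 was lower in LFD control (16.2%) and 11 of 17 in HFD control (28.9%). Bub1b, a spindle checkpoint kinase, was lower in 4 of 4 at -3.93 to -1.45, and Espl1, the separase that securin holds, was lower in 3 of 4. Mki67 and Top2a, which mark dividing cells, were lower in 3 of 4 each. Proliferation markers summed to 0.00882 to 0.0143% of counts in B6 iWAT on HFD and 0.00178 to 0.00372% in 129. In eWAT HFD control they summed to 0.0263 to 0.0386% in B6 and 0.00215 to 0.00424% in 129. In eWAT LFD control these were 0.00287 to 0.00694% and 0.00305 to 0.00435%. The part of these markers was not tested.

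For Unc5a, Unc5b, another netrin receptor, was lower in 129 in 2 of 4 contrasts, and Dcc, Unc5c and Unc5d had too few counts to test. For Grid1, the cerebellins Cbln1 to Cbln4 had too few counts in every contrast, and of the 9 genes on its list at most 1 was tested in any contrast. Of the 14 genes on the Unc5a list 8 were tested in each contrast.

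The genes most like each member over the 64 libraries were found by Pearson's r of log2(CPM + 1) among 13988 genes, as a description, since libraries share strain, depot and run. Trim30d was among the closest 2 genes for Trim12a (r = 0.94), Nlrp1c-ps (0.95), Unc5a (0.89) and Tfr2 (0.79). Hal was closest to BC018473 (0.96), Nnt to Emp2 (0.93), Pttg1 to 2610507I01Rik (0.96), Grid1 to Hfe (0.89) and Slc7a11 to Tuba1c (0.87). Rprl3 was closest to Rps15a-ps6 (0.95), and Trim12a to 4833420G17Rik (0.95), the neighbour of Nnt on another chromosome. Among the members, Pttg1 and Rprl3 had r = -0.94, and Nnt had the weakest relation to the rest, from -0.50 with Pttg1 to 0.54 with Slc7a11.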

How the data were processed

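RNA was extracted with Trizol and columns, depleted of ribosomal RNA and made into TruSeq libraries, per the labels' protocols. The deposited values are raw read counts per gene, made with TopHat2 2.1.0 and HTSeq on genome mm9, per the submitters' processing notes; the annotation and strand setting were not given in the sources used here. From these, 5 tally rows that name no gene (29.3 to 70.6% of reads in no feature, 0.195 to 1.23% ambiguous) were left out. Library totals were 3099737 to 9551251 counts, and intervals and floors cover counting error only. CPM used TMM factors over all 64 libraries. Tests were edgeR 4.0.16 quasi-likelihood F tests (R 4.3.3; filterByExpr with a minimum count of 10 and total of 15; Benjamini-Hochberg over all genes tested; 2-sided; call at an adjusted p under 0.05), fitted on the compared groups only and tested on simulated data. Alternatives were RLE scaling, DESeq2 1.42.0, no filter, a replicate block and leaving out each library. Groups follow the labels. No pair of libraries differed by as little as sampling noise.

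The members and lists were chosen with earlier results of these data known. Neighbours and list genes are named by the largest number of the 4 strain contrasts passed, at most 3 a set. By this rule only genes whose calls all went in the same direction were taken, so they can look more alike across contrasts than their sets. Close copies and the 2 genes most like each member are named beside them. Slc3a2, Espl1 and partners with too few counts were named for their roles after their values were seen. Sequences came from RefSeq (GRCm38.p6) and GENCODE M21 (GRCm38), and 23113 symbols of the files matched RefSeq. No protein sequence was used here.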

Additional observations from a re-analysis of the deposited data

Results flagged for a closer look

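A library far from the others of its group was found in 17 of 137 groups of 4 or 5 libraries examined. Chance gives about 1 in 20 where values are normally spread. A few counts in 1 library among others with none always pass this rule, so nothing is read from the number of groups. For Nnt these were B6 eWAT HFD set 1 replicate 5, at 40.0 CPM against 27.2 to 29.4 CPM in the others, B6 iWAT LFD replicate 2, at 24.2 CPM against 17.3 to 18.4 CPM, B6 iWAT HFD rosi replicate 1, at 16.7 CPM against 8.13 to 9.40 CPM, and 129 eWAT LFD replicate 4, at 62.6 CPM against 50.9 to 52.7 CPM. Hal was 96.2 CPM in 129 iWAT HFD rosi replicate 4, against 80.1 to 82.0 CPM.

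Trim12a was 19.4 CPM in F1 control replicate 1, the library with the high lymph node marker share, against 7.05 to 8.25 CPM, and 24.0 CPM in B6 iWAT LFD replicate 2, against 17.4 to 18.1 CPM. Nlrp1c-ps was 21.4 CPM in B6 eWAT HFD set 1 replicate 3, against 16.6 to 17.9 CPM, and 10.03 CPM in B6 iWAT HFD rosi replicate 1, against 4.91 to 5.60 CPM. Grid1 was 12 CPM in B6 eWAT HFD rosi replicate 4, against 2.68 to 3.43 CPM. Both Nnt and Trim12a were thus set apart in B6 iWAT LFD replicate 2, and both Nnt and Nlrp1c-ps in B6 iWAT HFD rosi replicate 1.

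The other libraries set apart rest on 5 counts or fewer. Rprl3 was 0.623 CPM (4 counts) in B6 eWAT HFD rosi replicate 3 and 0.226 CPM (1 count) in F1 rosi replicate 4, with 0 in the others of each group. Grid1 was 0.136 CPM (1 count) in 129 iWAT HFD replicate 4 and 0.262 CPM (2 counts) in 129 iWAT HFD rosi replicate 3, with 0 in the others, 1.2 CPM (5 counts) in F1 control replicate 3, against 0 to 0.261 CPM, and 0 in BAT replicate 2, against 0.523 to 0.534 CPM. Tfr2 was 0.440 CPM (2 counts) in 129 eWAT LFD replicate 1, against 0.798 to 0.860 CPM.

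The diet effect in eWAT differed between the strains for Slc7a11, with an interaction of -4.22 on the log2 scale, and for Rprl3, with 3.07. The value for Rprl3 rests on 3 counts in B6 and is not interpretable.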

How the results depend on the processing

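The 26 calls of single members in the diet, rosi, F1 and interaction tests were repeated under 4 other settings and with each library left out, 350 values in all, of which 0 changed direction and 42 lost the call. Other settings lost 6 of 104: 0 of 26 with RLE scaling, 1 with DESeq2, 3 with no filter and 2 with the replicate block. Leaving out a library lost 36 of 246: Trim12a for F1 against B6 in 8 of 9 (adjusted p 0.000184 to 0.111), for rosi in B6 iWAT in 4 of 8 and for rosi in F1 in 4 of 10, Grid1 for rosi in B6 iWAT in 3 of 8, Unc5a for diet in eWAT set 2 in 5 of 8 and the interaction of Rprl3 in 12 of 16.

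Members called for diet in 129 eWAT, 1 as reported, were 2 with RLE scaling, with DESeq2 and with the replicate block, 3 with no filter, and 1 to 2 with a library left out. Members called for the interaction of strain and diet, 2 as reported, were 1 with DESeq2 and with no filter, and 1 to 2 with a library left out. Members called for rosi in B6 iWAT, 3 as reported, were 1 to 4 with a library left out, with 1 without rosi replicate 3. The cause was not tested.

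Replicate numbers did not pair the libraries in any comparison: correlations of same-numbered libraries' deviations ran from -0.321 to 0.636. The replicate block kept 24 of 26 calls and lost Grid1 for rosi in B6 iWAT (adjusted p = 0.0711, edgeR) and Trim12a for F1 against B6 (adjusted p = 0.0898, edgeR). Depth limits Rprl3 and Grid1 in F1 and every member near 0 in 129, where single counts set the value.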

Other observations

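The copies of the members also differed in F1. Nlrp1b was 1.57 to 4.64 CPM in the 5 F1 control libraries, below the 4 B6 libraries of iWAT on LFD, at 5.89 to 9.94 CPM, and in part above the 4 libraries of 129 iWAT on HFD, at 1.36 to 1.90 CPM. Nlrp1a, at 0.72 to 2.11 CPM in F1, was likewise below the B6 range of 3.77 to 5.43 CPM, and it overlapped the 129 range of 0.88 to 3.23 CPM. Trim12c was 56.3 CPM in F1 control replicate 1, the library where Trim12a was also highest, and 27.7 to 37.5 CPM in the other 4. No test was made of these values.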
